A study of Homo sapiens with 12 samples.

Results

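GFP-negative cells are the fraction of human motor neuron cultures that carried no green signal when the cultures were sorted, and the values below describe how their RNA responded to the organochlorine insecticide cis-chlordane. The cultures came from the human embryonic stem cell line WA09-Islet1-GFP, of wild-type genotype in the labels, in which GFP reports the motor neuron transcription factor Islet1. After a differentiation protocol of 16 days the cells were plated, given 10 µM cis-chlordane or a matching volume of its solvent DMSO for 16 hours, lifted with trypsin and sorted by FACS on GFP, and mRNA libraries were sequenced from each fraction. The treated GFP-negative group and the control GFP-negative group held 3 libraries each, which makes 6 of the 12 libraries of the series, and the other 6 are the GFP-positive cells of the same design. Both groups share the line, the reporter, the plating and the sort, and differ by label only in the treatment. In the methods each replicate came from its own thaw, so the p-values measure the spread between thaws of 1 line. The gate is defined by the absence of a signal, so the fraction is a mixture of whatever cells did not express the reporter. All genes that passed a filter on low counts were kept, which left 15513 of the 28278 genes in the table.

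Cells meet stress in the endoplasmic reticulum (ER), the compartment where secreted proteins fold, with the unfolded protein response. Its sensors are the kinase PERK, which raises translation of the transcription factor ATF4, the nuclease IRE1, which splices XBP1 mRNA, and ATF6, and their targets include chaperones, amino acid metabolism genes and cell death genes. Neural tube progenitors, which in such cultures are expected outside the Islet1 gate, divide under the control of Notch and Sonic hedgehog signals and leave the cell cycle as they become neurons. Chlordane and related cyclodienes are known as blockers of the GABA-A receptor.

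The sort was checked first on the marker genes set for these cells. SOX2, a transcription factor of neural progenitors, was at 98.5, 116 and 107 CPM (counts scaled to a common library total by TMM) in control libraries 1 to 3 and at 94.5, 119 and 118 CPM in treated libraries 1 to 3. In control GFP-positive cells it averaged 13.8 ± 3.37 CPM (SD, n = 3), while ISL1, the gene behind the reporter, averaged 65.7 ± 3.13 CPM there and stood at 2.47, 2.38 and 2.75 CPM in the GFP-negative controls. SOX2 was therefore the higher and ISL1 the lower on the GFP-negative side, as the labels have it. In treated GFP-positive cells ISL1 averaged 12 ± 3.71 CPM (SD, n = 3). Whether the GFP-negative gate held the same mixture of cells in treated and control cultures was not tested. MKI67 and VIM, the other markers, averaged 19 ± 6.78 and 1559 ± 152 CPM in control GFP-positive cells against 166 ± 25.7 and 3811 ± 253 CPM in control GFP-negative cells (SD, n = 3 each). Among the 11 lists of cell type markers, however, the pan-neuronal genes summed to between 11469 and 12208 CPM in the controls, so neuronal transcripts were abundant beside those of progenitors. The motor neuron markers summed to 585 to 675 CPM, and the vesicular acetylcholine transporter SLC18A3 still stood at 143, 138 and 114 CPM. The pluripotency genes POU5F1, NANOG, TDGF1 and ZFP42 did not reach the count filter.

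Blood transcripts set 3 of the 6 libraries apart. HBB, which encodes the beta chain of adult haemoglobin, was at 3.93, 2.70 and 3456 CPM in the controls and at 137, 0.177 and 104 CPM in the treated libraries. HBA2, the alpha chain, was at 2.01, 0.900 and 2003 and at 72, 0.0709 and 74.7 CPM, with reads that its near-identical copy HBA1 can share. CSF3R, a receptor of granulocytes, was at 0.0325, 0.0871 and 141 and at 5.14, 0 and 3.32 CPM. Control 3 thus held the most, treated 1 and treated 3 held less, and the other 3 libraries were lower still. The 22 blood markers together made up 6412 CPM in control 3, with all 22 above 3 counts, 245 and 212 CPM in treated 1 and treated 3, and 2.23 to 8.25 CPM elsewhere. Of the 13 tested, 0 were called by edgeR or DESeq2 with all 6 libraries (median log2 fold change -3.85, 2 with an unadjusted p under 0.05), whereas 9 were called higher in treated cells without control 3 (median 4.60) and 6 were called lower without control 1 and 1 without control 2. Each count below was also taken without control 3, and with control 3, treated 1 and treated 3 all left out, which leaves 2 control libraries and 1 treated library, the latter assumed to vary like the others.

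**Figure D1:**
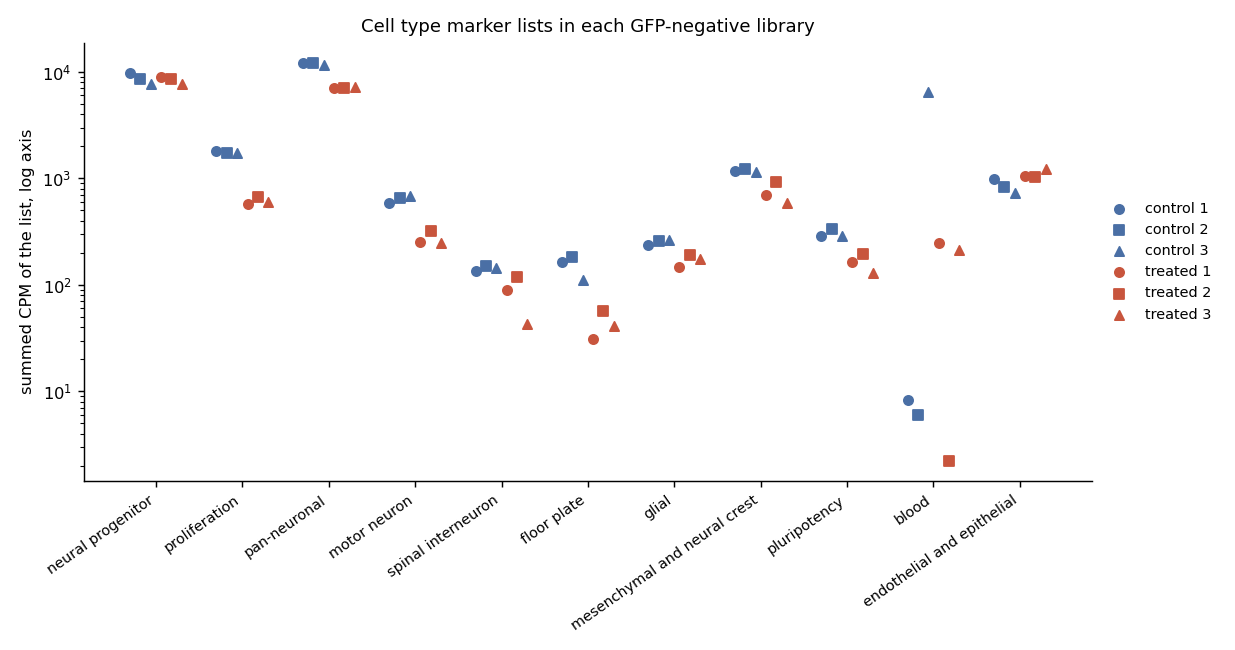
Summed CPM (log axis) of the 11 lists of cell type markers in each GFP-negative library, with control libraries in blue, treated libraries in red and 1 symbol per library. The blood markers spread from 2.23 to 6412 CPM with the highest value in control 3, while the proliferation markers lie between 1715 and 1801 CPM in controls and between 569 and 663 CPM in treated libraries.

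The GFP-negative libraries held between 23414935 and 33861772 counts over all genes. The first principal component of the 6 libraries held 59.7% of the variance and had all controls on one side and all treated libraries on the other, and the second, with 22.1%, had control 3 at one end. Of the genes tested with edgeR, 2844 were differentially expressed genes (called genes), which needed a Benjamini-Hochberg adjusted p below 0.05 together with a change of 2-fold or more. In what follows a rise or fall by a number is a log2 fold change, with its standard error (SE) after ±. They are 18.3% of the genes tested, with 1332 higher in treated cells (8.59%) and 1512 lower (9.75%). Without control 3 the count was 3260, of which 1624 were higher and 1636 lower. Of the 2844 called genes, 2589 kept their call without it and 0 turned. Of the 1332 genes called higher, 1264 were tested in GFP-positive cells, where 937 were also called higher and 8 were called lower. Of the 1512 called lower, 1403 were tested in GFP-positive cells, where 914 were also called lower and 5 were called higher. Over all 15333 genes tested in GFP-positive cells, 12.8% were called higher and 11.2% lower. The fold change in GFP-negative cells reached 8 for 123 genes that rose and 66 that fell. These shares, 8.59% higher and 9.75% lower, are the background for each list below, over which the median log2 fold change of all genes was -0.01. The lists were written from general knowledge with earlier results on this series known, so their counts are descriptions. Some genes belong to several lists and are counted in each.

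Promoter sequence is shown for 3 genes of the ER stress response that rose and that hold a known response element in the 250 bases before their RefSeq start, HSPA5, ASNS and CHAC1. DDIT3 and TRIB3 were also set for this and also rose, but are not shown because no promoter with such an element was found for them. They are given 5′ to 3′ on the strand of the gene, on build GRCh38.p14, at chr9:125241344-125241593 (minus strand) for HSPA5, chr7:97872409-97872658 (minus strand) for ASNS and chr15:40953221-40953470 (plus strand) for CHAC1. Capitals mark the ER stress element in HSPA5, which consists of CCAAT and CCACG with 9 bases between them, and in ASNS and CHAC1 the ATF4 element TGATGNAA or its reverse complement.
HSPA5: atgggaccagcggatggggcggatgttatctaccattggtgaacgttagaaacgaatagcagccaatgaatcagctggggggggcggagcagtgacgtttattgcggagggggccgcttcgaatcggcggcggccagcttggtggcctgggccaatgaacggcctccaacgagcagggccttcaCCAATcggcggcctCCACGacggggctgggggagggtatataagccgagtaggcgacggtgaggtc
ASNS: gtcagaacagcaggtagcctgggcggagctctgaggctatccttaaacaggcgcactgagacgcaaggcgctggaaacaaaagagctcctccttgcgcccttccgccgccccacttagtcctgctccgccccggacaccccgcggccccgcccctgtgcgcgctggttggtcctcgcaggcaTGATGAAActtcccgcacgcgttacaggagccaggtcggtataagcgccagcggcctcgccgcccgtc
CHAC1: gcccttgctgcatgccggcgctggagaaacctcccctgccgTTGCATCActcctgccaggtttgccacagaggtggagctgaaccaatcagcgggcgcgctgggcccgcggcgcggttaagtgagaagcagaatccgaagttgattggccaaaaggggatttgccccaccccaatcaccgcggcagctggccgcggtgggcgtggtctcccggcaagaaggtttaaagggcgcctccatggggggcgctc
The element lies at -66 to -48 from the start in HSPA5, at -68 to -61 in ASNS and at -209 to -202 in CHAC1. Promoters of 250 bases before to 50 after the start were found for 11793 of the tested genes and searched on both strands. The ATF4 element was in 6.04% of the 1010 promoters of genes called higher, in 3.05% of the 1114 of genes called lower and in 2.93% of all. The exact ER stress element was in 0.693%, 0% (0 of 1114) and 0.144% of the same groups. The element bound by XBP1, GACGTGG, whose reverse complement shares the letters CCACG with the ER stress element, was in 11.5%, 5.12% and 5.53%. A match is a match of letters and not a measured binding site. Shares given below for whole lists count all tested members, called or not. They follow from how the lists were written and do not depend on how the genes responded.

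The sensors and effectors of the unfolded protein response rose in treated GFP-negative cells. EIF2AK3, which encodes PERK, was at 9.65, 15.9 and 17.2 CPM in controls and at 57.4, 42.8 and 83.5 CPM in treated libraries, with no overlap between the groups (log2 fold change 2.10 ± 0.30 SE, adjusted p = 0.00075). Over all genes tested, the 2 groups did not overlap for 46.6%. ERN1, which encodes IRE1, rose by 1.76 ± 0.21 on the log2 scale from 5.78, 6.88 and 8.52 CPM (adjusted p = 0.000356), and ATF6 rose by 1.77 ± 0.15 from 36.5, 41.8 and 43.8 CPM (adjusted p = 6.03e-05). All 3 sensor genes were thus higher in every treated library than in any control. EIF2AK4, which encodes GCN2, the kinase that senses uncharged tRNA, was at 36.7, 50.5 and 49.7 CPM in controls and at 56.6, 73 and 45.6 CPM in treated libraries, and the groups overlapped (adjusted p = 0.232).

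Of 29 tested targets of PERK and ATF4, 27 were called higher and 0 lower, with a median log2 fold change of 2.48, and the counts were also 27 and 0 without control 3 and with the 3 blood-bearing libraries left out. NUPR1, CBS and FGF21 did not pass the count filter. ATF4 itself was at 620.4, 388 and 287 CPM in controls and at 1672, 1526 and 1845 CPM in treated libraries (log2 fold change 1.96 ± 0.26). DDIT3, which encodes the death-promoting factor CHOP, was at 22.1, 12 and 12.8 and at 119, 76.2 and 195 CPM (log2 fold change 3.05 ± 0.37, adjusted p = 0.000336). The controls of both genes lay below every treated library, with treated 3 the highest. TRIB3, a pseudokinase induced by CHOP, rose from 44.2, 29.9 and 22.9 CPM to 681, 699.5 and 808 CPM (log2 fold change 4.49 ± 0.26, adjusted p = 1.07e-05). The largest rise of the list was that of GDF15, a secreted stress hormone, from 8.87, 4.35 and 3.10 CPM to 197, 124 and 223 CPM (log2 fold change 5.05 ± 0.41, adjusted p = 4.48e-05). Among the controls, control 1 held the highest value of GDF15, DDIT3, TRIB3 and ATF4.

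CHAC1, which degrades glutathione, was at 22.4, 18.3 and 15.4 CPM in controls and at 136, 77.7 and 411 CPM in treated libraries (log2 fold change 3.48 ± 0.54, adjusted p = 0.00121). Treated 3 was far above the other treated libraries, and the fold change was 1.96 on the log2 scale in the fit with the 3 blood-bearing libraries left out, treated 3 among them. ASNS, asparagine synthetase, rose from 1.33, 2.23 and 3.14 CPM to 12.9, 16.5 and 9.82 CPM (log2 fold change 2.55 ± 0.35, adjusted p = 0.000707). ALDH1L2, an enzyme of mitochondrial one-carbon metabolism, went from 3.02, 3.08 and 3.10 CPM to 58.1, 53.8 and 39.3 CPM, and the transcription factor ATF3 from 28.3, 25.3 and 20.2 CPM to 304, 216 and 403 CPM. Both rose by more than most of the list, by 4.04 and 3.64 on the log2 scale. The ATF4 element was in the promoters of 25% of the list (6 of 24 with a promoter), against 2.93% of all genes.

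Called genes of amino acid supply and tRNA charging changed in the same direction. Of 14 amino acid transporters, 13 were called higher and 0 lower (median 2.11), with the same counts in both repeats. SLC7A11, the cystine importer, was at 5.69, 3.86 and 5.65 CPM in controls and at 85, 80.1 and 73.9 CPM in treated libraries (log2 fold change 3.98 ± 0.21). Its partner chain SLC3A2 rose from 328, 261 and 204 CPM to 3429, 3084 and 4012 CPM, among the 5 largest gains in CPM of called genes that met the naming rule. SLC7A3, an importer of cationic amino acids, rose by 4.0 ± 0.18, and SLC6A9, a glycine transporter, by 2.85 ± 0.17. Of 20 cytosolic aminoacyl-tRNA synthetases, 11 were called higher and 0 lower (median 1.18; 11 without control 3 and 10 with 3 libraries left out). WARS1, which charges tryptophan tRNA, had the largest of these rises, from 183, 168 and 139.5 CPM to 1042, 999.5 and 877 CPM (log2 fold change 2.57 ± 0.17), followed by GARS1 (2.0), IARS1 (1.83) and EPRS1 (1.68). HARS1, FARSA and KARS1 had log2 fold changes of 0.02, 0.20 and 0.23 and were not called. VARS1 and FARSB had negative log2 fold changes, -2.61 ± 1.08 (adjusted p = 0.0937) and -0.40 ± 0.18 (adjusted p = 0.125), and were not called either. The ATF4 element was in 45.5% of the transporter promoters (5 of 11) and in 43.8% of the synthetase promoters (7 of 16).

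Most tested targets of IRE1 and XBP1 were called higher. XBP1, the mRNA that IRE1 splices, was at 80.1, 87 and 99.5 CPM in controls and at 478, 431 and 559 CPM in treated libraries (log2 fold change 2.46 ± 0.17, adjusted p = 2.09e-05). A count per gene does not separate its spliced and unspliced forms. Of 23 tested IRE1 and XBP1 targets, 18 were called higher and 0 lower (median 1.59), with 19 without control 3 and 16 with the 3 libraries left out. SEC24D, a coat protein of vesicles that leave the ER, rose from 8.35, 11.2 and 14.6 CPM to 117, 109 and 145 CPM. HERPUD1, a component of ER-associated degradation, rose from 92.9, 87.8 and 83.9 CPM to 858, 636 and 1008 CPM, and the ER cochaperone DNAJB9 from 8.64, 9.75 and 12.8 CPM to 63.6, 47.8 and 86.2 CPM. All 3 genes were separate between the groups, with log2 fold changes of 3.44, 3.24 and 2.67.

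HSPA5, the main ER chaperone (BiP), showed the largest gain in CPM of any called gene that met the naming rule. It was at 606, 466 and 444 CPM in controls and at 6593, 5592 and 5445 CPM in treated libraries (log2 fold change 3.54 ± 0.17, adjusted p = 4.73e-06). Of 24 tested ER chaperones and folding enzymes, 15 were called higher and 0 lower (median 1.22), with 14 without control 3 and 10 with the 3 libraries left out. All 24 had positive fold changes. P4HB, a protein disulfide isomerase, rose from 959, 869.8 and 738 CPM to 3516, 2617 and 4301 CPM, HYOU1, a chaperone of the same family as BiP, by 2.36 ± 0.15 on the log2 scale, and FKBP14, a prolyl isomerase, by 2.26 ± 0.24. ERO1B, an ER oxidase, rose by 2.90 ± 0.40 from no more than 1.57 CPM in any control. The exact ER stress element printed for HSPA5 was in 31.8% of the promoters of this list (7 of 22), against 0.144% of all genes, and the ER stress and XBP1 elements were in 9.52% (2 of 21) and 19% (4 of 21) of the IRE1 and XBP1 targets.

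**Figure D2:**
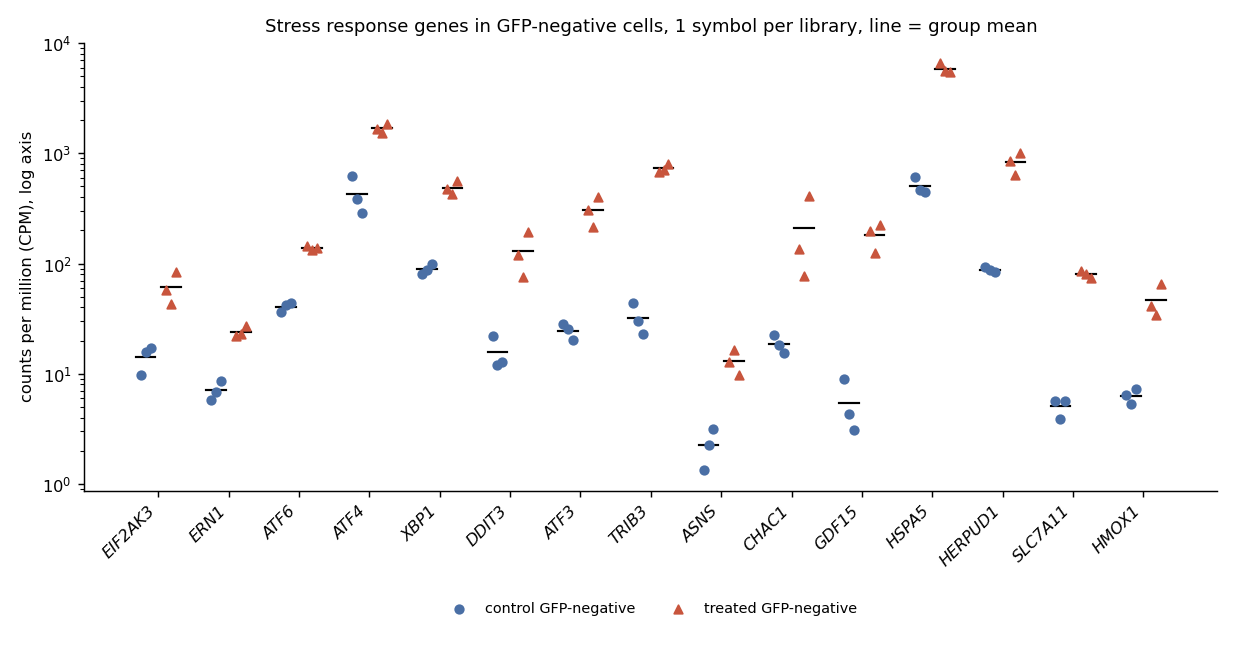
CPM on a log axis of 15 stress response genes in control (blue circles) and treated (red triangles) GFP-negative libraries, 1 symbol per library and a black line at each group mean. All treated libraries lie above all controls for each gene, with the widest spread among treated libraries in CHAC1, from 77.7 to 411 CPM.

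Few cytosolic folding and degradation genes were called. Of 15 tested cytosolic heat shock proteins only DNAJB4 was called higher (median 0.03), from 2.96, 5.22 and 8.28 CPM to 10.5, 8.97 and 19.7 CPM, and its adjusted p rose to between 0.069 and 0.22 when control 1, control 2, treated 1 or treated 3 was left out. The count was 1 in both repeats, and HSPA1A and HSPA1B did not pass the filter. Of 31 proteasome subunits, 0 were called by edgeR or DESeq2 (median 0.24), although 11 had an unadjusted p under 0.05 and 5 an adjusted p under 0.05 below the fold limit, 1 was called lower without control 3 and 1 higher without control 1. Autophagy genes rose in part, with 9 of 30 called higher and 0 lower (median 0.51), 10 without control 3 and 9 with the 3 libraries left out. SQSTM1, the cargo receptor p62, was at 201, 196 and 190.4 CPM in controls and at 1199.8, 962 and 1562 CPM in treated libraries (log2 fold change 2.66 ± 0.20), and MAP1LC3B, which encodes an LC3 protein of autophagosomes, was at 186, 151 and 150.2 and at 1030.3, 771 and 1031 CPM. WIPI1, which acts early in autophagosome formation, rose by 3.53 ± 0.23, and CALCOCO2, another cargo receptor, by 1.84 ± 0.16.

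Oxidative stress genes rose in part. Of 21 targets of the transcription factor NRF2, 10 were called higher and 0 lower (median 0.94), with 11 without control 3 and 10 with the 3 libraries left out. HMOX1, haem oxygenase 1, was at 6.37, 5.31 and 7.22 CPM in controls and at 41.2, 34.2 and 65.1 CPM in treated libraries (log2 fold change 2.90 ± 0.27, adjusted p = 9.48e-05), and treated 3 was the highest. OSGIN1 rose by 3.03 ± 0.26 and AKR1B10, an aldo-keto reductase, by 3.14 ± 0.66, the latter from 9 counts over the 3 controls to 75 over the treated libraries. FTL, the light chain of ferritin, rose from 1137, 892 and 899 CPM to 3323, 2667 and 4865 CPM, with copies elsewhere in the genome that can share its reads. SLC7A11, counted above among the transporters, was also called on this list. The pentose phosphate enzymes PGD, TALDO1 and TKT had log2 fold changes of 0.01, 0.18 and 0.08 and were not called.

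Of 24 p53 targets, 7 were called higher and 0 lower (median 0.22), with 6 without control 3 and 7 with the 3 libraries left out. GADD45A, a DNA damage and stress gene, rose by 2.57 ± 0.21 from 36.6, 27.9 and 21.3 CPM, and RRM2B, a ribonucleotide reductase subunit, by 1.57 ± 0.26. CDKN1A, which encodes the cell cycle inhibitor p21, was at 91.7, 81.8 and 60.2 CPM in controls and at 152, 178 and 179 CPM in treated libraries (log2 fold change 1.12 ± 0.18), and without control 3 the change of 0.97 fell under the fold limit. MDM2, BAX, FAS and TP53I3 had log2 fold changes of 0.65, 0.02, -0.20 and -0.37 and were not called. Of 26 genes of the BCL2 family and death receptors, 5 were called higher and 0 lower (median 0.28), with 6 and 5 in the repeats. TNFRSF10B, the death receptor DR5, was at 114, 119 and 105 CPM in controls and at 548, 579.5 and 609 CPM in treated libraries (log2 fold change 2.36 ± 0.15, adjusted p = 1.26e-05). The genes of the proapoptotic proteins NOXA (PMAIP1), PUMA (BBC3) and HRK rose by 2.14, 1.73 and 1.67. TNFRSF10B, PMAIP1 and BBC3 were also counted among the PERK and ATF4 targets, as were BBC3 and GDF15 of the called p53 targets. Of 21 immediate early genes, 6 were called higher and 0 lower (median 0.55), with 7 higher without control 3 and 5 higher and 1 lower with the 3 libraries left out, among them KLF4 (2.57), FOSB (1.76), NR4A1 (1.64) and FOSL1 (1.39).

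**Figure D3:**
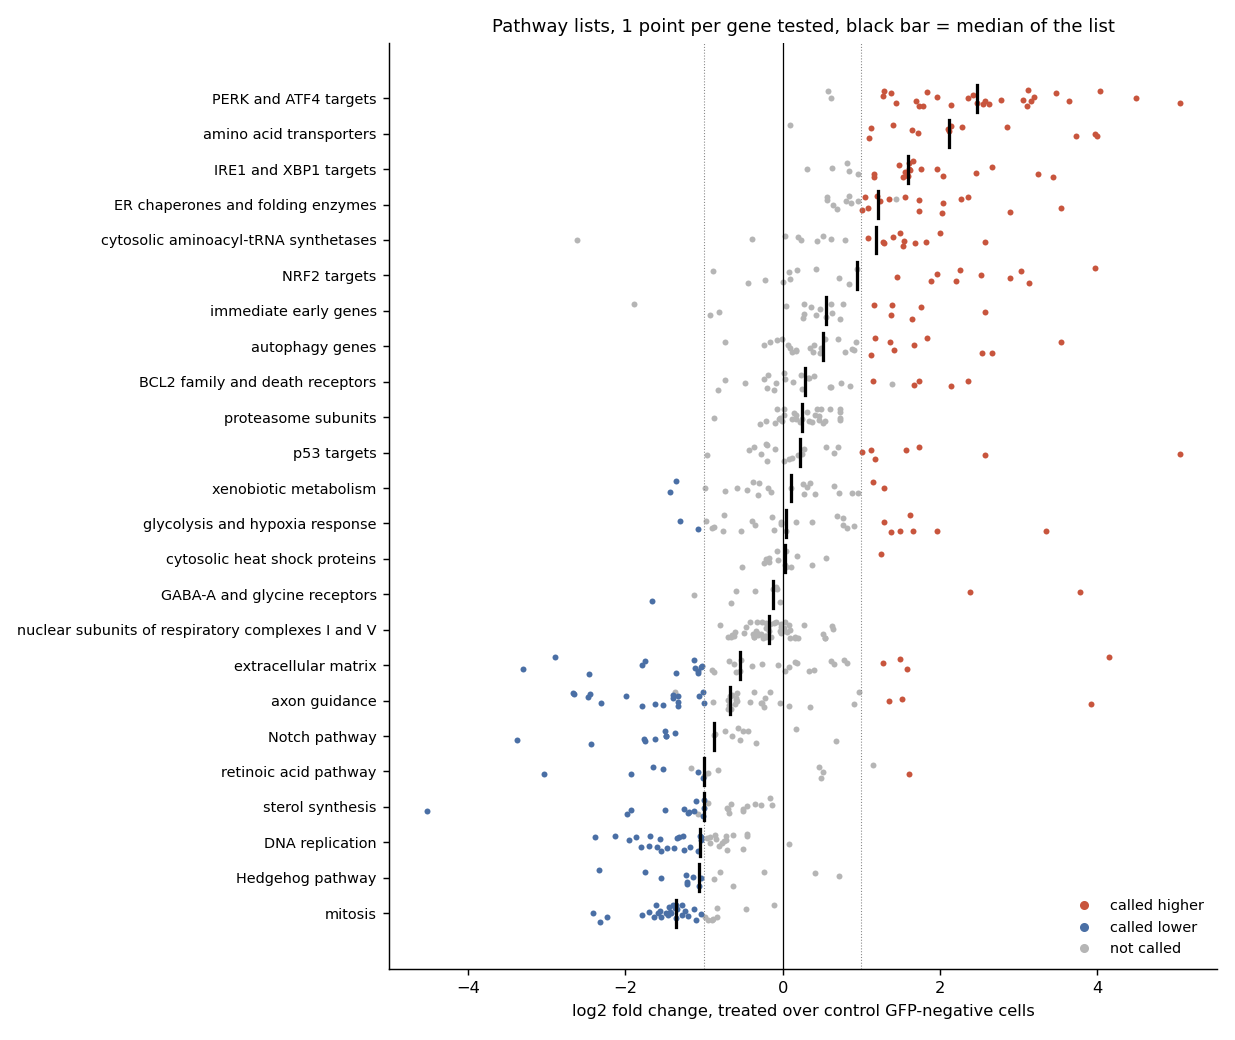
Log2 fold change (treated over control GFP-negative cells) of each tested gene in the 24 pathway lists, red for called higher, blue for called lower and grey for not called, with a black bar at the median of each list and dotted lines at -1 and 1. The medians run from 2.48 for the PERK and ATF4 targets to -1.36 for mitosis, and the lists of heat shock proteins, proteasome subunits and respiratory complex subunits lie around 0.

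Sterol synthesis genes were lower. Of 25, 12 were called lower and 0 higher (median -1.0), with 13 without control 3 and 15 with the 3 libraries left out, and all 25 had negative fold changes. ACAT2, which makes the first intermediate of the pathway, fell from 308, 233 and 201 CPM to 58.2, 66.6 and 63.8 CPM (log2 fold change -1.98 ± 0.19, adjusted p = 0.000101). MVK, mevalonate kinase, fell by 1.49 ± 0.31. FASN, fatty acid synthase, fell from 1436, 2202 and 2058 CPM to 794, 987 and 873 CPM, among the 5 largest losses in CPM of called genes that met the naming rule, though its change without control 2 was -0.98 and under the fold limit.

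In energy metabolism, the glycolysis and hypoxia genes were called higher beyond the background share (8.59%) and lower at about it (9.75%). Of 29 genes of glycolysis and the hypoxia response, 7 were called higher and 2 lower (median 0.04), with 7 and 3 without control 3 and 7 and 2 with the 3 libraries left out. VEGFA, the vascular growth factor, was at 20.9, 22.5 and 21.2 CPM in controls and at 233, 218 and 205 CPM in treated libraries (log2 fold change 3.34 ± 0.15, adjusted p = 4.73e-06). NDRG1, ADM, which encodes adrenomedullin, and HK2, hexokinase 2, rose by 1.96, 1.66 and 1.62, while the glycolytic enzymes ALDOC and LDHA fell (log2 fold changes -1.30 and -1.08, the latter -0.98 and under the fold limit without control 1). Of 51 nuclear subunits of respiratory complexes I and V, 0 were called by edgeR or DESeq2 (median -0.17), 8 had an unadjusted p under 0.05 and 2 an adjusted p under 0.05 below the fold limit. Of the same subunits, 0 were called without control 3, 1 was called higher without control 1 (median 0.12) and 4 were called lower with the 3 libraries left out (median -0.56).

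Cell division genes fell. MKI67, a protein of cycling cells, was at 140.2, 168 and 192 CPM in controls and at 26.1, 46.7 and 20.8 CPM in treated libraries (log2 fold change -2.42 ± 0.29, adjusted p = 0.000339), with every treated library below every control. Of the 11 proliferation markers, all 11 were called lower (median -1.55), with 10 without control 3 and 9 with the 3 libraries left out. All 11 are also members of the mitosis or the replication list below, so their calls are counted again there. In bulk libraries fewer cycling cells and less of these mRNAs per cell cannot be told apart. The same holds for the cell types of the marker lists below. Of 35 mitosis genes, 27 were called lower and 0 higher (median -1.36), with 24 and 19 in the repeats. AURKB, the kinase of the chromosomal passenger complex, fell from 69.6, 56.6 and 53.8 CPM to 11.8, 13.7 and 10.5 CPM (log2 fold change -2.32 ± 0.19). PLK1, a mitotic kinase, fell from 212, 224 and 217 CPM to 60.6, 76.4 and 52.7 CPM, and KIF20A, a kinesin of cytokinesis, fell by 2.23 ± 0.20. CCNB1, cyclin B1, fell by 1.62 ± 0.15.

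Of 37 DNA replication genes, 21 were called lower and 0 higher (median -1.05), with 22 without control 3 and 17 with the 3 libraries left out. UHRF1, which couples replication to the copying of DNA methylation, was at 50.1, 59.5 and 52.7 CPM in controls and at 7.46, 13.9 and 9.58 CPM in treated libraries (log2 fold change -2.39 ± 0.24). MCM3, a subunit of the replicative helicase, fell from 169, 139 and 116 CPM to 39.4, 38.8 and 37.9 CPM, MCM10, an initiation factor, fell by 2.14 ± 0.22, and RRM2, a ribonucleotide reductase subunit, fell by 1.95 ± 0.17. CCND1, cyclin D1, was at 292, 234 and 222 CPM in controls and at 129, 143 and 102 CPM in treated libraries, just under the fold limit at -1.0 ± 0.18 and past it at -1.07 without control 3. CCND2, cyclin D2, was at 69.5, 43.4 and 37.9 and at 80.3, 80.6 and 62.8 CPM and was not called (adjusted p = 0.0943). The E2F elements TTTGGCGC and TTTCCCGC were in 53.1% of the replication promoters (17 of 32) against 4.40% of all genes, and TTTGAA, the core of the cell cycle homology region, in 72.4% of the mitosis promoters (21 of 29) against 13.8%. Over all called genes these shares were 5.30% and 18% among those that fell and 3.27% and 13.0% among those that rose.

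The fall of the replication genes was compared with that in the GFP-positive cells of the same design. There, 6 of the 37 were called lower and 3 higher (median -0.24), against 11.2% and 12.8% of all 15333 genes tested in those cells, and of the 35 mitosis genes 10 were called lower and 0 higher (median -0.58). The difference of the responses was tested as an interaction on 16226 genes. It was more positive in GFP-negative cells for 198 genes (1.22%) and more negative for 157 (0.968%) at an adjusted p under 0.05, counts that were 145 and 171 with RLE scaling, 84 and 266 with library size alone, which moved the median difference over all genes from 0.05 to -0.20, and 105 and 233 for genes with at least 10 counts in every library. In place of 355 genes in all, 172 differed without control 2 and 154, 224 and 216 without treated 1, 2 and 3. Of the replication genes, 11 had a more negative response in GFP-negative cells and 0 a more positive one, and with library size alone and RLE scaling the counts were 16 and 12. In place of 11 there were 6 without control 2, 4 without treated 1, 7 without treated 3 and 20 with DESeq2. MCM3 was one of them, with a mean of 26.2 ± 1.11 CPM in control and 16.9 ± 1.75 CPM in treated GFP-positive cells (SD, n = 3 each) and a difference of -1.21 ± 0.22 SE (adjusted p = 0.00995). TYMS, thymidylate synthase, fell from 162, 124 and 102 CPM to 46, 45.7 and 36.6 CPM in GFP-negative cells and was at 14.1 ± 2.01 and 11.3 ± 1.34 CPM in GFP-positive cells (difference -1.26 ± 0.27, adjusted p = 0.0228), a difference that lost its call without control 2, treated 1 or treated 3. Of the mitosis genes 2 differed, KIF23 and CENPE, which were named after their values were seen. In place of 2 there were 0 without control 2, treated 1 or treated 3, 1 without control 3, 5 without control 1 or treated 2, with library size alone or with at least 10 counts in every library, and 10 with DESeq2. For MKI67 the difference was -1.21 ± 0.39 and not past the threshold (adjusted p = 0.13). A replicate block that joins the fractions of 1 treatment and number gave MKI67 an adjusted p of 0.00945 in this test. With that block 21 replication and 12 mitosis genes had a more negative response. The titles give both fractions the same bio rep numbers, though no label says that equal numbers mark the same sorted culture. Correlations of the joined fractions ran from 0.08 to 0.36. The main test of the difference has no block and takes the 12 libraries as independent, which ignores any such tie.

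**Figure D4:**
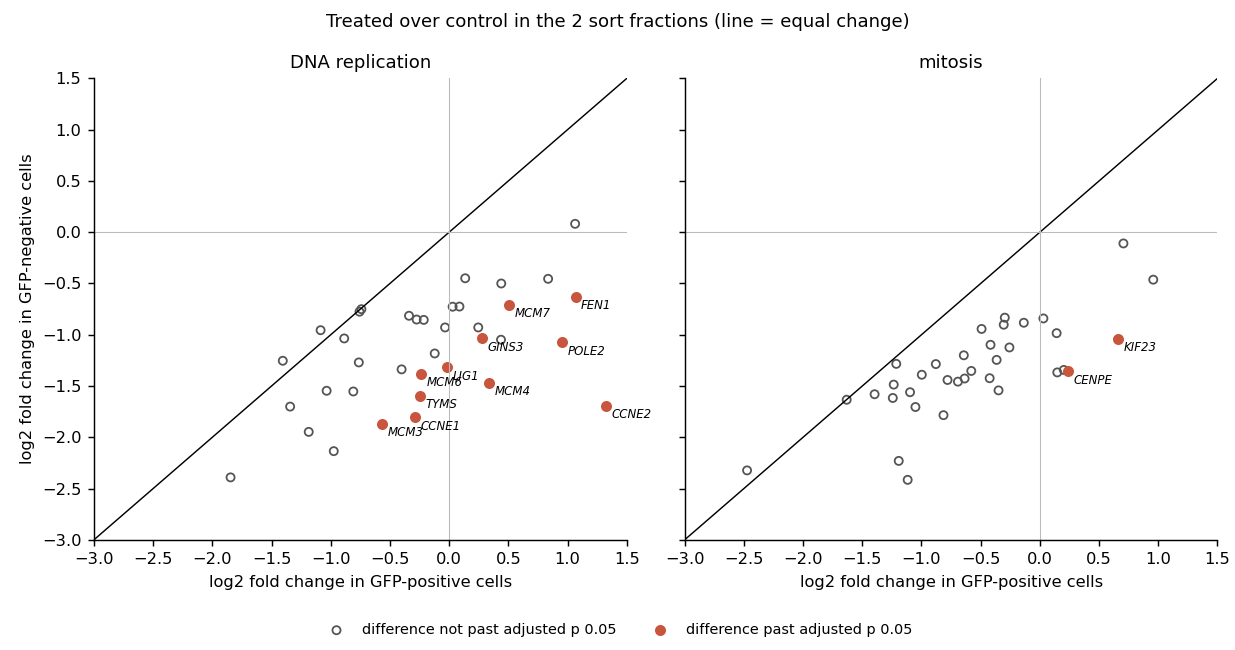
Log2 fold change of each replication gene (left) and mitosis gene (right) in GFP-negative (vertical axis) against GFP-positive cells (horizontal axis), with a line of equal change and filled red points where the difference passed an adjusted p of 0.05. Of the replication genes 35 of 37 and of the mitosis genes 34 of 35 lie below the line, with 11 and 2 filled points. The axes come from separate fits of the fractions, and the share of all genes below the line was not counted. In the interaction fit the median difference was -0.85 for the replication and -0.68 for the mitosis genes, against 0.05 over all genes.

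Neural progenitor genes fell in most but not all cases. Of 24 tested, 17 were called lower and 0 higher (median -1.27), with 17 without control 3 and 11 with the 3 libraries left out. SOX3, a relative of SOX2, was at 282, 299.9 and 244 CPM in controls and at 54.8, 56.2 and 72.7 CPM in treated libraries (log2 fold change -2.17 ± 0.18, adjusted p = 4.5e-05). SOX2 had a log2 fold change of 0.04 ± 0.16 (adjusted p = 0.87) with values that overlapped between the groups, and the sign of this small value changed with the scaling and the libraries used. PAX6, at 30.6, 37 and 36.8 CPM in controls and 40.3, 37.3 and 34.8 CPM in treated libraries, was not called either (adjusted p = 0.668). FABP7, a radial glia protein, fell from 237, 145 and 123 CPM to 40.7, 60.5 and 42 CPM, NEUROG1, a proneural factor, from 23, 26.8 and 24.2 CPM to 5.06, 4.96 and 4.79 CPM, and the glutamate transporter SLC1A3 fell by 1.79 ± 0.26. The intermediate filament genes parted, as NES fell from 3425, 2409 and 1963 CPM to 960.1, 1317 and 988 CPM while VIM was higher in treated cells, at 4095, 3728 and 3609.9 against 6950.5, 6002 and 5803 CPM, with a change of 0.71 ± 0.12 under the fold limit (adjusted p = 0.00202). OLIG2, a factor of motor neuron progenitors, was at 19.9, 21.9 and 14.8 CPM in controls and at 12.1, 11.5 and 10.9 CPM in treated libraries, separate between the groups but also under the fold limit (-0.71 ± 0.20). The summed CPM of the whole list, 7646 to 9850 in controls and 7753 to 8936 in treated libraries, overlapped between the groups, with VIM and NES its most abundant members.

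**Figure D5:**
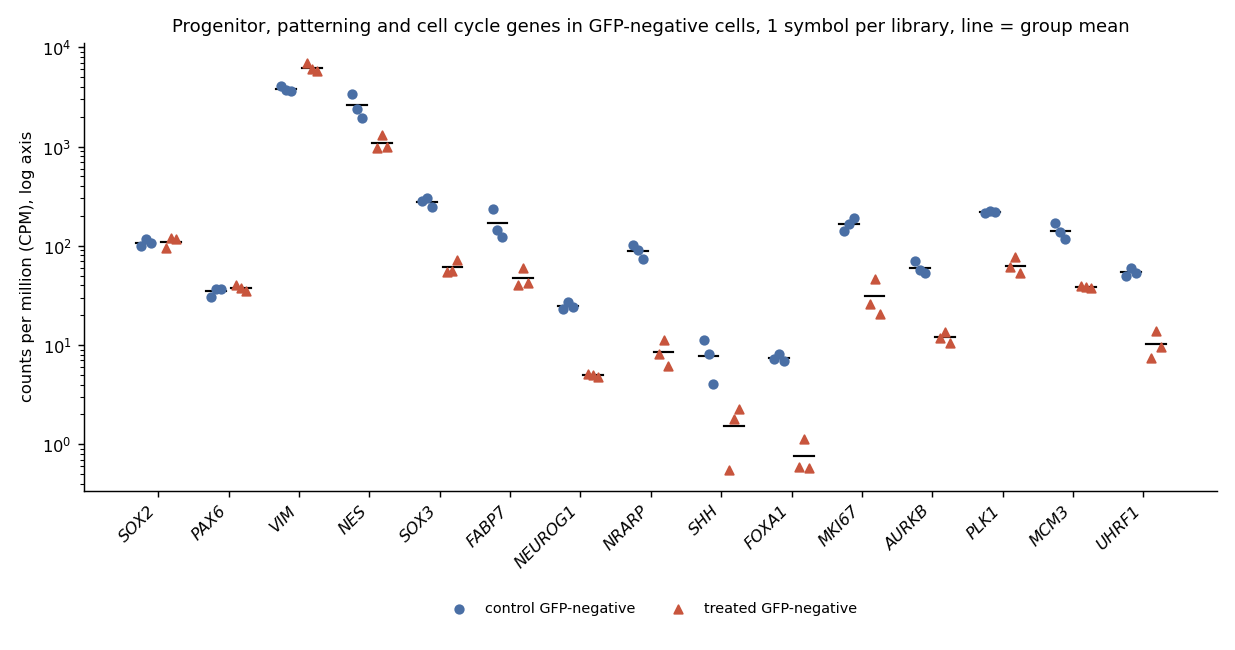
CPM on a log axis of 15 progenitor, patterning and cell cycle genes in control (blue circles) and treated (red triangles) GFP-negative libraries, 1 symbol per library and a black line at each group mean. SOX2 and PAX6 overlap between the groups, VIM is higher in every treated library and the other 12 genes are lower in every treated library.

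The signalling pathways of progenitors were lower in part. Of 20 tested Notch pathway genes, 9 were called lower and 0 higher (median -0.87), with 10 and 9 in the repeats. NRARP, a direct Notch target that feeds back on the pathway, was at 101, 91 and 73.8 CPM in controls and at 8.14, 11.2 and 6.16 CPM in treated libraries (log2 fold change -3.38 ± 0.25, adjusted p = 2.65e-05). The receptor gene NOTCH1 fell from 175, 249 and 218 CPM to 57.7, 82.4 and 51 CPM, the ligand-like DLL3 from 261, 255 and 199 CPM to 68.9, 68.7 and 73.3 CPM and LFNG, which modifies Notch receptors, fell by 2.44 ± 0.28. HES5, another target, had 4 counts over the controls and 3 over the treated libraries and was not tested. Of 15 Hedgehog pathway genes, 9 were called lower and 0 higher (median -1.07), with 8 without control 3, 7 with the 3 libraries left out, 4 without control 2 and 5 without treated 1. SHH, the ligand, was at 11.3, 8.07 and 4.04 CPM in controls and at 0.548, 1.81 and 2.26 CPM in treated libraries (log2 fold change -2.33 ± 0.52, adjusted p = 0.0083). Its target NKX2-2 fell by 1.75 ± 0.21, and the coreceptor GAS1 and the transcription factor GLI2 also fell (log2 fold changes -1.54 and -1.23), calls that were lost without control 2 or treated 1, for GLI2 also without treated 3. Of 15 retinoic acid pathway genes, 6 were called lower and 1 higher (median -1.0), with 8 and 1 without control 3 and 5 and 1 with the 3 libraries left out. CYP26A1, which degrades retinoic acid, fell by 3.03 ± 0.52 (adjusted p = 0.087 with the 3 libraries left out), and the nuclear receptor genes RXRG and RARB had log2 fold changes of -1.93 and -1.64. The binding protein gene CRABP2 fell from 615, 554 and 533 CPM to 202, 227 and 163 CPM, while DHRS3, a retinal reductase, rose from 5.78, 3.54 and 4.40 CPM to 15.9, 11.5 and 14.5 CPM.

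Genes of other cell types in the fraction were lower in part. Of 19 tested spinal interneuron markers, 11 were called lower and 0 higher (median -1.60), with 11 without control 3 and 7 lower and 1 higher with the 3 libraries left out. SOX14, a transcription factor gene, was at 4.35, 4.79 and 4.79 CPM in controls and at 0.0422, 0.248 and 0.0684 CPM in treated libraries, and POU4F1 and PAX2, others, fell (log2 fold changes -2.99 and -2.69). Of 7 floor plate markers, 6 were called lower and 0 higher (median -1.99), the same in both repeats, but 3 without control 2, treated 1 or treated 3. FOXA1 was at 7.24, 8.07 and 6.99 CPM in controls and at 0.590, 1.13 and 0.581 CPM in treated libraries (log2 fold change -3.26 ± 0.35), and the guidance cue NTN1 fell from 103, 117 and 78.4 CPM to 19.1, 33.8 and 22.1 CPM. Of 15 tested motor neuron markers, 7 were called lower and 0 higher (median -1.16), with 8 without control 3 and 4 with the 3 libraries left out. ISL1 fell from 2.47, 2.38 and 2.75 CPM to 0.379, 0.674 and 0.547 CPM, SLC18A3 to 28.5, 35.3 and 38.8 CPM and LHX4 from 34.2, 33.6 and 31.9 CPM to 6.91, 11.5 and 8.65 CPM. MNX1 was at 4.84, 4.70 and 3.30 CPM in controls and at 5.02, 4.61 and 4.41 CPM in treated libraries, with overlap (adjusted p = 0.752). CHAT, the enzyme of acetylcholine synthesis, fell by 1.86 ± 0.57 with overlapping groups, a call that was lost without control 2, treated 1 or treated 3. Of 16 pan-neuronal genes, 2 were called lower and 1 higher (median -0.76), with 4 and 1 without control 3, 3 and 1 with the 3 libraries left out and 6 lower without treated 2. Another 11 of the 16 had an adjusted p under 0.05 below the fold limit, and 12 fold changes were negative and 4 positive. The summed CPM of this list was 11469 to 12208 in controls and 7025 to 7253 in treated libraries. INA and ELAVL4 fell (log2 fold changes -1.15 and -1.45), and SYT1, the calcium sensor of synaptic vesicles, rose by 1.07, which was 0.95 without control 1 and 0.99 without treated 1.

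Of 12 tested glial markers, 3 were called lower and 1 higher (median -0.36), the same in both repeats. OLIG1, a factor of the oligodendrocyte lineage, fell from 5.98, 4.64 and 3.61 CPM to 0.548, 0.886 and 0.479 CPM. GFAP, an astrocyte filament, rose from 0.195, 0.203 and 0.549 CPM to 1.90, 2.27 and 1.06 CPM, a low level in each library, and the astrocyte markers AQP4 and S100B did not pass the filter. Of 15 mesenchymal and neural crest markers, 6 were called lower and 0 higher (median 0.44), with 6 and 1 without control 3 and 4 and 0 with the 3 libraries left out. FOXC2, LUM, THY1 and PDGFRB had log2 fold changes of -2.56, -3.30, -1.39 and -1.35, the last not called without control 2 or treated 1. The median of this list was positive although its calls were negative, and it was 0.12 without control 3 and 0.09 with the 3 libraries left out. Of 5 tested pluripotency markers, 2 were called lower and 0 higher (median -0.17), with 2 without control 3 and 0 with the 3 libraries left out. LIN28A fell by 1.16 and DNMT3B fell by 1.08, the latter not called without control 2, treated 1 or treated 3, which left 1 call. Of 11 endothelial and epithelial markers, 1 was called higher and 1 lower (median 0.32), with the same counts without control 3 1 and 0 with the 3 libraries left out, 2 and 2 without control 1 and 2 lower without control 2. KDR, a receptor of VEGFA, was at 9.03, 10 and 8.79 CPM in controls and at 90.6, 123 and 82.9 CPM in treated libraries (log2 fold change 3.41 ± 0.21, adjusted p = 1.12e-05), and TEK fell by 2.25 ± 0.50 from at most 1.06 CPM.

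Axon guidance and matrix genes held more lower than higher calls, the higher ones near the background share (8.59%). Of 45 axon guidance genes, 17 were called lower and 3 higher (median -0.67), with 17 and 3 without control 3, 11 and 5 with the 3 libraries left out and 5 higher without treated 1. UNC5C, a netrin receptor, was at 18.9, 15.9 and 18.3 CPM in controls and at 2.40, 3.97 and 2.05 CPM in treated libraries (log2 fold change -2.65 ± 0.29), whereas UNC5B, of the same receptor family, rose from 23.8, 25.8 and 23.7 CPM to 394, 484 and 237 CPM (log2 fold change 3.93 ± 0.27, adjusted p = 1.79e-05). The semaphorin gene SEMA5A fell by 2.67 and SEMA3D fell by 2.47, the latter with an adjusted p of 0.052 without treated 3. EPHA7, an ephrin receptor, fell by 2.45, while EPHB1, another, rose by 1.52 and the semaphorin receptor NRP1 by 1.36. Of 36 tested matrix genes, 12 were called lower and 4 higher (median -0.54), with 12 and 4 without control 3, 5 and 4 with the 3 libraries left out, 7 lower without treated 1 and 6 lower without treated 3. TNC, the glycoprotein tenascin C, was at 17.7, 20.8 and 17.7 CPM in controls and at 306, 368 and 325 CPM in treated libraries (log2 fold change 4.15 ± 0.17, adjusted p = 4.25e-06). COL12A1 and COL11A1 rose by 1.58 and 1.28, while COL2A1 fell from 141, 140.2 and 69.6 CPM to 14.7, 31.5 and 17.5 CPM, LAMA4, a laminin chain, from 11.7, 11.5 and 11.2 CPM to 1.48, 2.06 and 1.06 CPM and NCAN, a proteoglycan of the nervous system, fell by 1.79 ± 0.26. COL6A3 rose by 1.49, a call lost without control 1, control 2, treated 2 or treated 3.

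Genes that handle foreign compounds were called at about the background share (8.59% higher and 9.75% lower). Of 23 tested, 2 were called higher and 2 lower (median 0.11), with 3 and 3 without control 3, 2 and 2 with the 3 libraries left out and 1 higher when any other single library was left out, and 9 of the 32 on the list, among them CYP2B6, CYP3A4 and the receptor genes NR1I2 and NR1I3, did not pass the filter. ABCB1, the efflux pump P-glycoprotein, was at 2.31, 3.37 and 4.75 CPM in controls and at 7.63, 7.84 and 9.92 CPM in treated libraries (log2 fold change 1.29 ± 0.31, adjusted p = 0.0113), with an adjusted p of 0.052 without control 2 and 0.062 without treated 3. CYP2S1 rose by 1.14, a call lost without control 1, treated 1 or treated 2, and GSTM1 and GSTM2, similar glutathione transferase genes whose reads can be shared, fell (log2 fold changes -1.43 and -1.36). CYP1A1 and CYP1B1, targets of the aryl hydrocarbon receptor, had log2 fold changes of -0.15 and -0.38 and were not called. Of the 19 GABA-A and glycine receptor subunits, 11 were tested, with 2 called higher and 1 lower (median -0.12), the same in both repeats, and 2 lower without control 1. GABRG3 rose from 0.487, 0.348 and 0.314 CPM to 5.90, 5.04 and 5.10 CPM, and GABRA3 fell from 17.2, 18.5 and 18.4 CPM to 5.78, 7.38 and 4.0 CPM.

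Several of the largest rises were of genes near silence in the controls. HSPB7, a small heat shock protein of muscle, had 1 count over the controls and 87 counts over the treated libraries, a ratio of 97.3 per scaled count with a 95% counting interval of 17 to 3886, which covers counting error only. MMP1, interstitial collagenase, was at 0.195, 0.0581 and 0.0785 CPM in controls and at 37.4, 25.3 and 63.1 CPM in treated libraries (log2 fold change 8.51 ± 0.52, adjusted p = 1.19e-05). KLHDC7B was at 0.617, 0.232 and 0.157 and 38.4, 40.3 and 30.7 CPM, LAMP3, a lysosomal membrane protein, at 1.40, 0.464 and 0.746 and 48.8, 45.2 and 32.1 CPM, and CLDN1, a tight junction claudin, at 1.04, 0.726 and 0.471 and 44.9, 41.2 and 29.8 CPM. All 3 were below 2 CPM in every control and above 25 CPM in every treated library. DMGDH, an enzyme of choline breakdown, and MSC, a transcription factor rose, with log2 fold changes of 6.11 and 5.65. The rule passed over 3 antisense genes among the largest rises.

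Developmental genes were among the largest falls. NKX6-3, a homeobox gene, was at 11.7, 7.95 and 6.99 CPM in controls and at 0.0422, 0.177 and 0.171 CPM in treated libraries (log2 fold change -6.01 ± 0.47, adjusted p = 3.66e-05). GJA4, a connexin gene, was at 8.51, 8.48 and 6.79 and 0.126, 0.355 and 0.0684 CPM, MIR9-3HG, the host transcript of a microRNA of neural progenitors, at 23.5, 20.9 and 20.6 and 0.675, 1.06 and 0.752 CPM, and WNT7B, a Wnt ligand, at 43.4, 41.7 and 34.1 and 1.31, 2.59 and 1.57 CPM. Each of these was separate between the groups, with log2 fold changes of -5.39, -4.69 and -4.44. LGR5, a receptor that strengthens Wnt signals, fell by 4.29 ± 0.60, the phospholipase gene PLA2G3 fell by 4.66 ± 0.68, and SOX14, described above, fell by 5.20. The rule passed over 1 gene known only by a locus number. Among called genes that met the naming rule, the largest losses in CPM beside NES and FASN were in the abundant genes ACTB, which encodes beta actin and went from 11790.1, 10576 and 9902 CPM to 4351, 4916 and 4220.1 CPM, MARCKSL1, from 2678, 2217 and 1752 CPM to 883, 928 and 739.6 CPM, and PTMS, from 2080.3, 1727 and 1697 CPM to 925, 926 and 899.8 CPM, the last at the fold limit and not called without control 1 or treated 3. Under the same rule the largest gains beside HSPA5, SLC3A2, FTL and P4HB included VGF, a secreted neuropeptide precursor, from 635, 566 and 428 CPM to 2635, 2350.4 and 2992 CPM (log2 fold change 2.29 ± 0.18).

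For 4 genes the interaction had the smallest p-values. TBX2, a T-box factor, was at 5.20, 4.12 and 4.83 CPM in control and at 2.23, 2.73 and 1.74 CPM in treated GFP-negative cells, and went from a mean of 53.5 ± 3.49 to 1.27 ± 0.330 CPM (SD, n = 3 each) in GFP-positive cells. The log2 fold change in GFP-negative cells was higher by 4.33 ± 0.31 SE (adjusted p = 5.68e-06), while the call of TBX2 within GFP-negative cells (-1.07) was lost without control 1, control 2, treated 1 or treated 3. COL1A2, a chain of type I collagen, was at 188, 210.4 and 172 CPM in control and at 292, 322 and 262 CPM in treated GFP-negative cells, and at 185 ± 17.5 and 43.5 ± 9.71 CPM in GFP-positive cells (difference 2.73 ± 0.24, adjusted p = 4.04e-05). NRP2, a semaphorin and VEGF receptor, was at 97.5, 126 and 110.3 and 189, 279 and 183 CPM in GFP-negative cells, under the fold limit at 0.97 and past it without control 2, treated 1 or treated 3 (1.05 to 1.06), and at 401 ± 5.47 and 112 ± 18.4 CPM in GFP-positive cells (difference 2.82 ± 0.25, adjusted p = 4.04e-05). The fourth was TNC, which rose in both fractions and more in GFP-negative cells (difference 2.22 ± 0.21, adjusted p = 4.85e-05).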

How the data were processed

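Bulk RNA-seq of 12 libraries was used, of which the 6 GFP-negative ones carry the comparison and the 6 GFP-positive ones the interaction. The authors deposited raw counts per gene, which were whole numbers. According to the methods and the submitters' processing notes, lanes were joined, reads checked with FASTQC and mapped to hg38 by HISAT2, as single-end reverse-stranded reads with Ensembl gene models, and featureCounts is named with no settings. Reads shared by near-identical genes may therefore be lost or split. The concentration is that of the labels (10 µM), and the methods give another. The titles of treated libraries also hold the word untreated, and their treatment field and column names were followed.

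Groups were taken from the labels. Genes were filtered with filterByExpr (minimum count 10, minimum total 15), scaled by TMM and tested with the quasi-likelihood test of edgeR 4.0.16 in R 4.3.3, and p-values were adjusted over the whole table by Benjamini-Hochberg. A gene was called where the adjusted p was below 0.05 and the change 2-fold or more, and the interaction of treatment and fraction, fitted on all 12 libraries, with an adjusted p under 0.05. With 3 libraries against 3 an exact permutation test cannot give a p under 0.1, so none was used for single values. DESeq2 1.42.0, other scalings and filters, glmTreat, a GC correction and the omission of each library were alternatives. Scripts were tested on simulated data. Promoters came from RefSeq (GRCh38.p14) and gene positions from GENCODE 44. A 95% interval was given for ratios of small counts.

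The genes and lists were chosen with earlier results of these data known. Named were the sort markers and blood genes, the 8 largest rises and falls by fold and the 5 by CPM among called genes without overlap that were also called without control 3 (antisense, LINC and clone-named genes passed over), up to 4 called genes in each direction of each list, the 4 genes of lowest interaction p and a set of 20 stress and progenitor genes. Some genes that these rules name are not reported here.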

Additional observations from a re-analysis of the deposited data

Results flagged for a closer look

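The results below were singled out because the log2 fold change of a named gene differed between GFP-negative and GFP-positive cells by the interaction test of edgeR. Each value is the log2 fold change in GFP-negative minus that in GFP-positive cells, taken from the fit of all 12 libraries. The fold changes given beside it come from separate fits of the fractions, so they do not subtract to it exactly. Of the 166 named genes, 21 met this rule, and their causes were not tested. TBX2, COL1A2, NRP2 and TNC were named for the smallest interaction p, so their place in this count was fixed by that choice. Over all 16226 genes tested, the difference was more positive in GFP-negative cells for 1.22% and more negative for 0.968%. The named genes were chosen with earlier results known, so the count of 21 is a description.

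Among the genes whose response was more positive in GFP-negative cells, MMP1 rose in both fractions, by 8.51 and 4.04, and differed by 4.57 (adjusted p = 0.00763). TBX2 differed by 4.33 (adjusted p = 5.68e-06), at -1.07 in GFP-negative and -5.32 in GFP-positive cells. NRP2 differed by 2.82 (adjusted p = 4.04e-05), at 0.97 and -1.77, and its relative NRP1 by 2.30 (adjusted p = 6.71e-05), at 1.36 and -0.85. COL1A2 differed by 2.73 (adjusted p = 4.04e-05), at 0.62 and -2.02, and TNC by 2.22 (adjusted p = 4.85e-05), at 4.15 and 2.01. The receptor subunit gene GABRG3 differed by 2.79 (adjusted p = 0.0119), at 3.78 and 1.08. VGF differed by 1.57 (adjusted p = 0.00431), at 2.29 and 0.81, WIPI1 by 1.33 (adjusted p = 0.013), at 3.53 and 2.29, and MNX1 by 1.49 (adjusted p = 0.0412), at 0.13 and -1.28.

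Among the genes whose response was more negative in GFP-negative cells, 8 were positive in both fractions and less so in GFP-negative cells, PAX6 among them. GDF15 differed by -2.47 (adjusted p = 0.014), at 5.05 and 7.61, HK2 by -2.25 (adjusted p = 0.000155), at 1.62 and 3.95, and LAMP3 by -2.19 (adjusted p = 0.0395), at 5.59 and 7.88. ABCB1 differed by -2.10 (adjusted p = 0.0113), at 1.29 and 3.48, DHRS3 by -1.69 (adjusted p = 0.0408), at 1.61 and 3.39, SLC7A11 by -1.57 (adjusted p = 0.0118), at 3.98 and 5.63, and CCND2 by -1.43 (adjusted p = 0.0295), at 0.57 and 2.08. The progenitor factor PAX6 differed by -1.81 (adjusted p = 0.00224), at 0.10 and 2.01, and OLIG2 by -1.59 (adjusted p = 0.00979), at -0.71 and 0.97. The replication genes TYMS and MCM3 differed by -1.26 (adjusted p = 0.0228), at -1.60 and -0.25, and by -1.21 (adjusted p = 0.00995), at -1.87 and -0.57.

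All 21 differences kept their call with DESeq2 and without the filter, and 20 did with RLE scaling and with library size alone, where MNX1 lost it. With at least 10 counts in every library 17 did, without GABRG3, LAMP3, MMP1 and MNX1. Leaving out 1 library of the GFP-negative groups kept 15 to 20. Without treated 1 the calls of CCND2, DHRS3, LAMP3, MNX1, TYMS and WIPI1 were lost, without treated 2 those of CCND2, DHRS3, LAMP3 and MNX1, and without treated 3 those of CCND2, DHRS3, LAMP3, MNX1 and TYMS. Without control 1 DHRS3 and LAMP3 lost theirs, without control 2 DHRS3, MNX1 and TYMS, and without control 3 MNX1.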

How the results depend on the processing

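Calls ranged from 2167 to 3260 when each GFP-negative library was left out in turn (1046 to 1624 higher and 1121 to 1636 lower), and lay between 2257 and 3055 with DESeq2, a GC correction, library size alone, a floor of 10 counts per library, RLE scaling, no filter, a fit on all 12 libraries or the 3 blood-bearing libraries left out, the last chosen after seeing the data. With glmTreat, which tests against the fold of 2 itself, 812 were called, 446 higher and 366 lower. The replicate numbers did not pair treated with control libraries (correlations of same-numbered deviations -0.06, 0.31 and 0.04). With the number as a replicate block 2694 genes were called, 2617 of the 2844 among them, and with the block and the libraries numbered 3 left out 3208. For the interaction, 798 genes were called with DESeq2, 1264 with a replicate block that joins the fractions of 1 treatment and number (correlations 0.08 to 0.36, 1 of the 6 under 0.1; 21 replication and 12 mitosis genes, and MKI67 with an adjusted p of 0.00945), 384 without the filter, 304 for a difference of at least 1, and 154 to 414 with 1 library left out, against 355.

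Of the 152 named genes that were called, all kept their direction under the 17 alternatives, and 132 kept the call in all of them but glmTreat. Over all lists and alternatives, 1078 counts of calls stayed within 1.5 times the value given and 112 did not. Among the named genes the sign turned for the blood genes and for uncalled genes near 0. Some list medians also changed sign, as with the 3 libraries left out for glial (-0.36 to 0.11), pluripotency (-0.17 to 0.05), proteasome (0.24 to -0.07) and heat shock genes (0.03 to -0.06). With each library left out in turn HBB ranged from -4.53 to 4.60, HBA2 from -4.35 to 5.08, CSF3R from -4.88 to 5.43 and the blood list median from -4.44 to 4.60, with the highest value without control 3 in each. MNX1 ranged from -0.028 (without control 3) to 0.22 and SOX2 from -0.0228 (without treated 3) to 0.13, also negative without control 1 or treated 2. With the block and the libraries numbered 3 left out HBB was at 2.30, HBA2 at 3.13, the blood list median at 2.30 and SOX2 at -0.013. MNX1 was at -0.027 with the 3 libraries left out, PAX6 at -0.11 with the GC trend removed and SOX2 at -0.026 with library size alone. With 3 libraries a group, the median standard error over the genes tested was 0.24 on the log2 scale, and 20 called genes had at most 3 counts in 1 of the groups.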
